A study of Xenopus laevis with 4 samples.

Results

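The 6 genes this report is about encode proteins that add the poly(A) tail of messenger RNA, remove it or bring about its removal. Most of the 6 had higher signals in the isolated vegetal cortex of the Xenopus laevis oocyte than in whole oocytes. The 6 are tob2.L, zfp36l2.L, zfp36l2.S, papola.L, papola.S and parn.L, measured by the 11 probe sets whose single platform symbol is one of these names. The series as a whole has 9304 probe sets with a single symbol, for 7531 genes. These 6 genes were picked with the difference between cortex and whole oocyte on the same arrays already known, so their changes are given as a description with no p-value, and support nothing about their direction. This frog carries a long and a short subgenome, and the endings .L and .S name the copy of a gene, or homeolog, that lies on each.

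The vegetal cortex samples held the layer of cytoplasm and cytoskeleton under the membrane of the yolk-rich hemisphere, dissected by hand from full-grown stage VI oocytes and frozen in batches. The whole oocyte samples were intact stage VI oocytes. Oocytes of both groups had been isolated with collagenase, and the labels give no genotype, strain or added agent for either. Each group has 2 arrays, 1 for each of 2 females, and the cortices and whole oocytes of a replicate number come from the same female.

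Signals are MAS5 intensities scaled to the same mean on every array, and a log2 change is that of signal plus an offset of 19.11, cortex minus whole oocyte. A change is therefore relative to the other RNAs of the sample, and more of an RNA in the cortex cannot be told apart from less of the others. Fewer cells of a type and less RNA per cell also cannot be told apart in such bulk samples. Of 15 genes known for RNA at the vegetal cortex, 14 were called higher by limma and the other, vegt.S, was not. This list was chosen with earlier results of these data known, so its count is no independent check of the dissection. Markers of other cells stayed dim: 1 of 14 probe sets for follicle and stromal cells (vim.L) and 1 of 8 for blood (slc4a1.L) reached the signal needed for testing, and neither was called. The summed signal of the follicle and stromal probe sets was 1280 and 1468 in the cortices and 1001 and 1395 in whole oocytes, and that of the blood probe sets was 869 and 1555 in the cortices and 1178 and 1042 in whole oocytes.

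The length of the poly(A) tail affects how well a stored maternal message is translated. Full-grown oocytes hold many messages with short tails, and cytoplasmic poly(A) polymerases and deadenylases act against each other on them until maturation. Proteins of the Tob family tether deadenylases to a message, and proteins of the ZFP36 family do so at AU-rich elements in its 3' untranslated region.

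Among the 10 member probe sets bright enough to test, 8 had both cortex signals above both whole oocyte signals, an arrangement seen in 14.7% of the 9295 tested probe sets. At an adjusted p under 0.05 by limma, 6 of the 10 were among the calls for higher signal, against 3.31% of all tested probe sets. At least a 4-fold higher signal in both females was seen for 5 of the 10, against 2.1%. The members were chosen on this contrast, so nothing is read from these shares. The median log2 change of the 10 was 2.48, beside -0.20 for all tested probe sets.

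**Figure D1:**
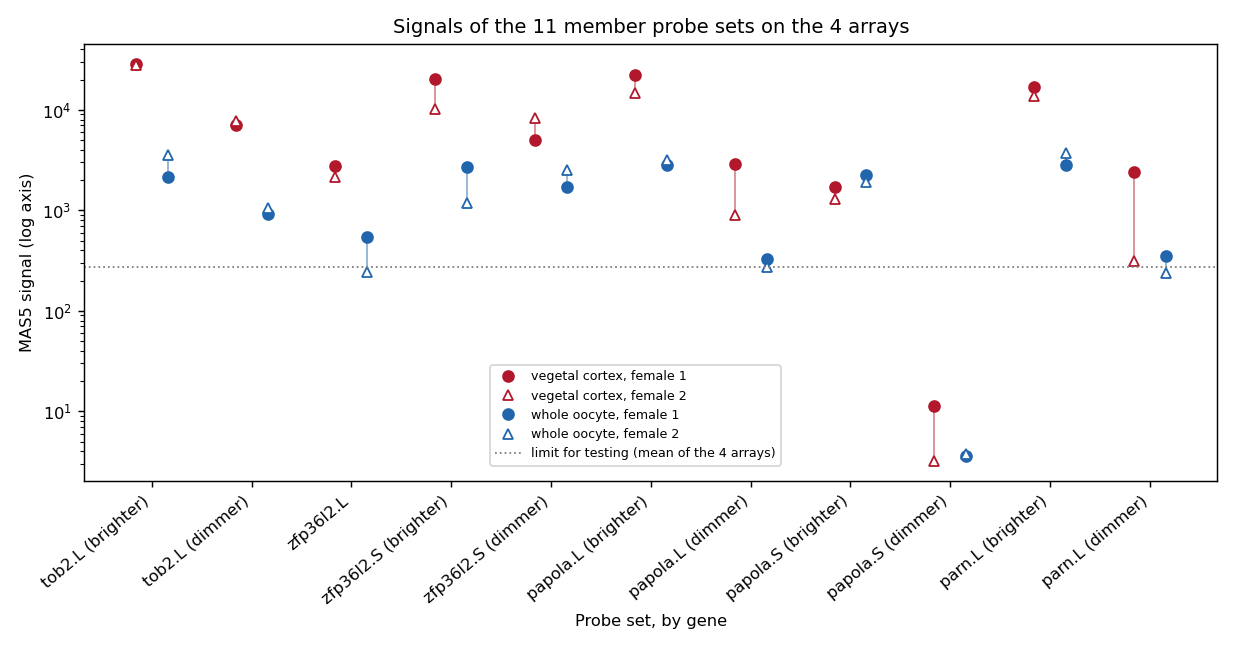
MAS5 signal (log axis) of the 11 member probe sets on the 4 arrays, with vegetal cortex (red) left of whole oocyte (blue), circles for female 1, triangles for female 2, lines joining arrays of a group, and a dotted line at the mean signal of 271.5 needed for testing. Cortex signals of tob2.L, zfp36l2.L, zfp36l2.S and papola.L lie above those of whole oocytes, and those of the brighter papola.S probe set lie below. The dimmer papola.S probe set lies far under the dotted line with its groups intermixed. The dimmer parn.L probe set has 1 cortex array level with whole oocytes.

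tob2.L encodes a Tob protein, which in mammals binds the CCR4-NOT deadenylase and the cytoplasmic poly(A)-binding protein at once. Its brighter probe set had signals of 28676 and 27872 in the cortices of females 1 and 2, and 2135 and 3586 in their whole oocytes. Its dimmer probe set had 7083 and 7670 in the cortices, and 914 and 1061 in whole oocytes. On both probe sets the groups stood well apart and the cortex arrays lay close together. The log2 change was 3.34 ± 0.34 (SE, n = 2 per group), or 10.2-fold, on the brighter probe set. It was 2.88 ± 0.34, or 7.36-fold, on the dimmer one. The brighter probe set held rank 56 among the 9295 tested changes, the highest rank of the member probe sets, and the dimmer one rank 110.

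The probe sets assigned to both homeologs of zfp36l2 had higher signals in the cortex. This gene encodes a zinc finger protein that binds AU-rich elements and promotes the removal of the tail, and in mice it is needed for female fertility. zfp36l2.L was measured by 1 probe set, with signals of 2770 and 2129 in the cortices and 542 and 243 in whole oocytes. Its groups did not overlap, and in both groups female 1 was above female 2. The log2 change of zfp36l2.L was 2.67 ± 0.47 (SE, n = 2 per group), a 6.38-fold difference.

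The brighter probe set of zfp36l2.S had signals of 20456 and 10089 in the cortices and 2680 and 1183 in whole oocytes. The second had 4984 and 8332 in the cortices and 1720 and 2499 in whole oocytes. In both cases each cortex array exceeded each whole oocyte array, but the order of the females was opposite on these probe sets. The log2 change of zfp36l2.S was 3.00 ± 0.49 on the brighter probe set and 1.63 ± 0.39 on the dimmer one (SE, n = 2 per group). The difference between these changes was 1.40 in female 1 and 1.34 in female 2, and it was not tested. The brightest probe sets of zfp36l2.S and zfp36l2.L differed by less, 0.61 in female 1 and 0.04 in female 2, in favour of zfp36l2.S. Probe sequences were not examined, so whether each probe set measures its own homeolog alone was not tested.

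The next group holds the canonical poly(A) polymerase, the enzyme that adds the tail after cleavage of the new transcript. The brighter papola.L probe set had signals of 22277 and 14697 in the cortices and 2825 and 3166 in whole oocytes. The dimmer one had 2918 and 893 in the cortices and 325 and 275 in whole oocytes. On both, the cortex of female 1 was the highest array and no signals of the groups overlapped. The log2 change of papola.L was 2.59 ± 0.33 (6.02-fold) on the brighter probe set and 2.36 ± 0.57 (5.14-fold) on the dimmer one (SE, n = 2 per group).

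papola.S, the other copy of the polymerase gene, had lower signals in the cortex, by little more than the SE of its change. Its brighter probe set had signals of 1691 and 1290 in the cortices, against 2241 and 1902 in whole oocytes. Both cortex signals lay below both whole oocyte signals, as they did for 31.8% of tested probe sets. The log2 change of papola.S was -0.48 ± 0.36 (SE, n = 2 per group), at rank 6767 of 9295, and it lay 0.27 below the median of all tested probe sets. Between the brightest probe sets, the log2 change of papola.L exceeded that of papola.S by 3.37 in female 1 and by 2.76 in female 2. This gap was not tested, because it is part of the contrast on which the genes were picked. A further papola.S probe set had signals of 11.3 and 3.2 in the cortices and 3.5 and 3.8 in whole oocytes, below the offset on every array, and gives no change.

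parn.L encodes the poly(A)-specific ribonuclease PARN, a deadenylase that in Xenopus oocytes shortens the tails of stored messages. Its brighter probe set had signals of 16737 and 13590 in the cortices and 2803 and 3725 in whole oocytes. Its dimmer probe set had 2428 and 311 in the cortices and 350 and 239 in whole oocytes. The brighter probe set separated the groups, and on the dimmer one the cortex of female 2 lay between the whole oocyte arrays. The log2 change of parn.L was 2.22 ± 0.32 (4.65-fold) on the brighter probe set and 1.54 ± 0.83 on the dimmer one (SE, n = 2 per group). The log2 change of the dimmer probe set was 2.73 in female 1 and 0.36 in female 2. In female 2 the cortex thus stood 1.28-fold above the whole oocytes on the dimmer probe set and 3.63-fold above them on the brighter one.

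The difference between females, a measure within each group that is not the contrast between them, varied widely among the member probe sets. With 1 array per female in each group, it cannot be told apart from a difference in sample preparation or array. Over all tested probe sets the difference of log2 signals between females had an SD of 0.88 among cortices and 0.53 among whole oocytes. The dimmer parn.L probe set had the largest difference between the cortices among members, 2.89, and 0.85% of tested probe sets had one at least as large in either direction. The dimmer papola.L probe set followed with 1.69, a size reached by 4.62% of tested probe sets. In contrast, the cortices differed by 0.04 on the brighter tob2.L probe set and by -0.11 on the dimmer one, smaller than in 95.5% and 87.3% of tested probe sets. Among whole oocytes the largest differences were those of zfp36l2.S (1.17 on its brighter probe set, reached by 3.17% of tested probe sets) and zfp36l2.L (1.10, reached by 4.10%). These shares were taken over all tested probe sets, bright and dim alike, and were not matched on signal.

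**Figure D2:**
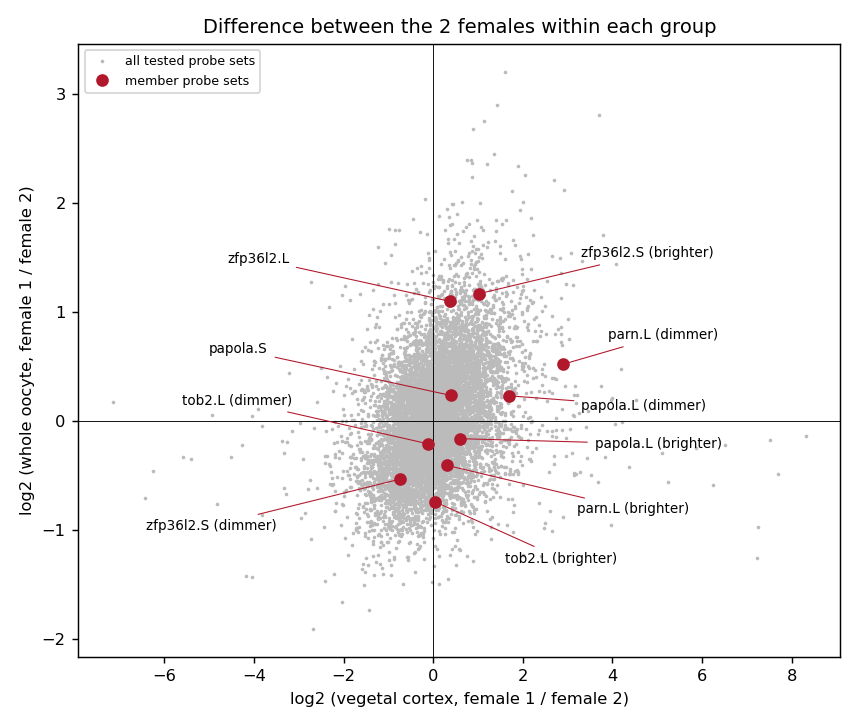
Difference of log2 signals between female 1 and female 2 in vegetal cortices (x axis) and in whole oocytes (y axis), for the 10 tested member probe sets (red) and all 9295 tested probe sets (grey). The dimmer parn.L and papola.L probe sets lie far to the right at 2.89 and 1.69, zfp36l2.L and the brighter zfp36l2.S probe set lie high at 1.10 and 1.17, and the tob2.L probe sets lie near 0 on the x axis.

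Close relatives of the members in the ZFP36 and BTG families had changes near 0. Neither tob2.S nor parn.S was the single symbol of a probe set here, and both were not analysed here. Of the other ZFP36 genes, zfp36l2.1.S had signals of 12400 and 9248 in the cortices and 11693 and 8491 in whole oocytes. zfp36l2.2.L had 12471 and 11553 in the cortices and 12504 and 9446 in whole oocytes. Groups overlapped on both, and the log2 changes were 0.10 ± 0.32 for zfp36l2.1.S (adjusted p = 0.912) and 0.14 ± 0.29 for zfp36l2.2.L (adjusted p = 0.858, limma). zfp36.L, whose product is tristetraprolin in mammals, was dim, with 241 and 398 in the cortices and 191 and 294 in whole oocytes (log2 change 0.36 ± 0.52, adjusted p = 0.787, limma). The difference between these relatives and the members was not tested.

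Among the Tob and BTG genes other than tob2.L, 4 genes were tested, and none was called in either direction by limma. There were 0 also at an unadjusted p under 0.05 (limma). With 3.31% of all tested probe sets called higher, 0 calls among 4 genes says little. btg4, which in mice links the CCR4-NOT deadenylase to maternal messages, had bright signals in both groups. btg4.S had 17936 and 21672 in the cortices and 21414 and 14111 in whole oocytes, and btg4.L had 7511 and 11743 in the cortices and 10837 and 10584 in whole oocytes. Their signals overlapped between groups, with log2 changes of 0.18 ± 0.30 for btg4.S and -0.19 ± 0.32 for btg4.L. btg1.L and btg1.S had changes of 0.10 ± 0.41 and -0.12 ± 0.32. tob1.S was too dim to test.

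**Figure D3:**
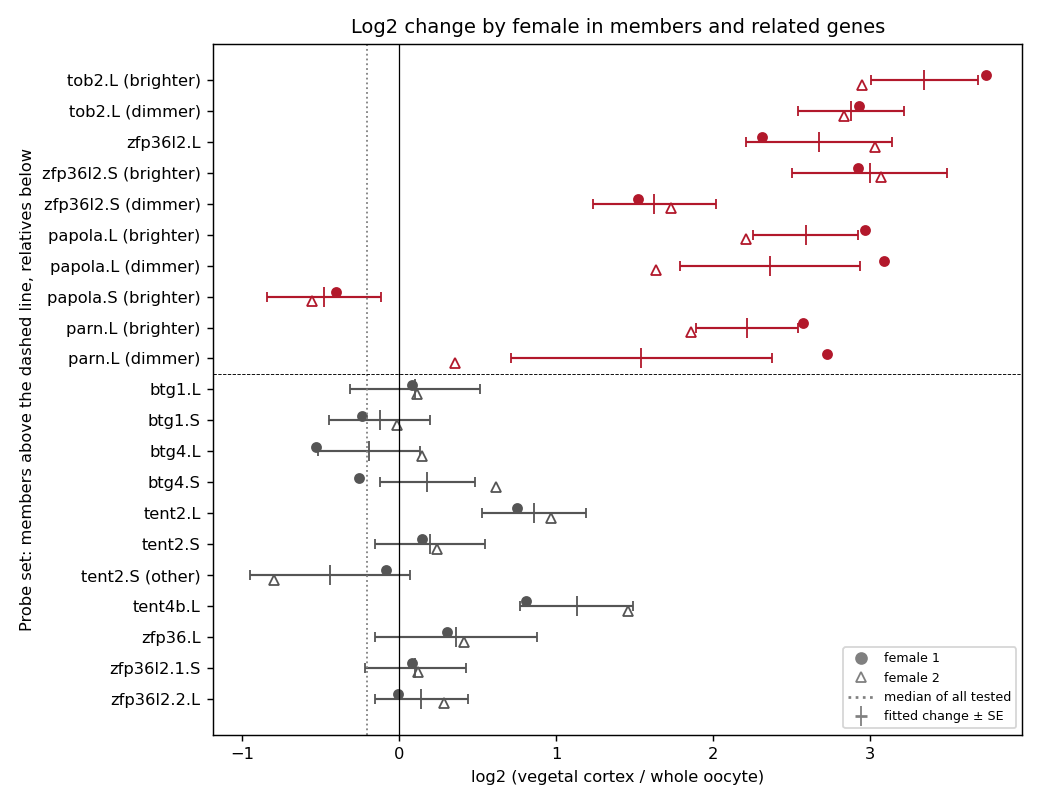
Log2 change, vegetal cortex over whole oocyte, for the tested member probe sets (red) and the tested btg, tent and zfp36 genes (grey), with circles for female 1, triangles for female 2, and bars for the fitted change ± SE. Of the members, papola.S alone lies below 0 at -0.48, and the btg, tent and zfp36 genes shown lie between -0.44 and 1.13.

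Other genes of tail metabolism and decay were compared through 8 lists drawn up from general knowledge, leaving out the 6 members. Of 88 tested probe sets, for 79 genes, 1 was called higher and 0 were called lower by limma, against 3.31% and 0% of all tested probe sets. Each single list is small beside that share, so 0 calls within a list says little about it. At an unadjusted p under 0.05 there were 7 higher (7.95%) and 3 lower (3.41%), beside 8.02% and 4.62% of all tested probe sets. The median log2 change was -0.12, beside -0.20 for all tested probe sets, and 30 of the 88 changes were above 0. Over all tested probe sets, 65.7% of changes were below 0, so the lists were near that background.

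The called gene was lsm4.S, a subunit of the Lsm ring that binds the 3' end of shortened messages ahead of decapping. It had signals of 1197 and 877 in the cortices and 162 and 155 in whole oocytes, with no overlap. Its log2 change was 2.56 ± 0.44 (adjusted p = 0.0176, limma; higher in both females), and leaving out either whole oocyte array lost the call (adjusted p = 0.137 without replicate 1, and 0.146 without replicate 2), while the change stayed at 2.59 and 2.53. With a single whole oocyte array the error comes from the cortex arrays, which differed more over all tested probe sets. Without the signal limit for testing, lsm4.S stayed called (adjusted p = 0.0391, limma). Of the other 14 tested probe sets for decapping, decay from the 5' end and decay of faulty messages, the RNA helicase gene ddx6.L had the next highest change (1.65 ± 0.49, adjusted p = 0.174), then a probe set of lsm7.L (0.61 ± 0.37), whose second probe set was at -0.01 ± 0.49. The lowest was dcp1b.L, a decapping cofactor gene, at -1.04 ± 0.46 (adjusted p = 0.398, limma). Next lowest was patl2.L, whose product binds stored oocyte messages, at -0.62 ± 0.43. The other tested Lsm genes, named here after their values were seen, lay between -0.61 (lsm6.S) and -0.12 (lsm3.S).

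The list of poly(A) polymerases and regulators of cytoplasmic polyadenylation, without the papola genes, had 0 calls among 5 probe sets by limma, with 2 higher and 0 lower where unadjusted p was under 0.05. tent4b.L, a noncanonical poly(A) polymerase gene, had signals of 7644 and 13379 in the cortices and 4363 and 4859 in whole oocytes (log2 change 1.13 ± 0.36, adjusted p = 0.214). tent2.L encodes GLD2, the polymerase that lengthens tails in the oocyte cytoplasm, and had 4135 and 4651 in the cortices and 2452 and 2370 in whole oocytes (0.86 ± 0.33, adjusted p = 0.342). For these genes the groups did not overlap, but neither passed over all tested probe sets. The lowest of this list were 1 tent2.S probe set (-0.44 ± 0.51), beside another tent2.S probe set at 0.20 ± 0.35, and the translation regulator gene msi1.L (-0.38 ± 0.36).

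Among genes of deadenylases and their complexes other than parn.L, 0 of 10 probe sets were called by limma, and 0 had an unadjusted p under 0.05. Their log2 changes ran from -0.71 for cnot10.L, a CCR4-NOT subunit gene, to 0.55 for pan3.S, the partner of the PAN2 deadenylase. cnot4.S, a ubiquitin ligase gene, had a change of 0.50 ± 0.33, and angel2.S of -0.37 ± 0.38. cnot6l.L, a catalytic subunit gene (named here after its values were seen), had signals of 5059 and 7138 in the cortices and 5518 and 7000 in whole oocytes, which are intermixed.

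Genes for binding AU-rich and other 3' elements had 0 calls among 16 probe sets by limma, with 1 higher and 1 lower where unadjusted p was under 0.05. celf1.L, whose product in Xenopus binds a deadenylation element of maternal messages, had signals of 7082 and 4447 in the cortices and 2074 and 1446 in whole oocytes. The groups were apart, and the log2 change was 1.69 ± 0.39 (adjusted p = 0.0657). Blocking on the female (adjusted p = 0.0313, limma) or quantile normalization (0.04999) brought celf1.L past the threshold. It stayed short of the threshold without the signal limit for testing (0.120) and without limma's intensity trend (0.0976). Its change was 1.94 without whole oocyte replicate 1 and 1.43 without replicate 2. The next highest was ybx2.S, for a protein that packs stored messages (0.38 ± 0.39). The lowest changes were those of 1 tial1.L probe set (-1.21 ± 0.38, adjusted p = 0.213) and of tial1.S (-0.78 ± 0.50), homeologs of an RNA-binding protein gene. The other 3 tested tial1.L probe sets had changes of 0.21 ± 0.48, 0.14 ± 0.53 and 0.00 ± 0.43. The difference between the probe sets of tial1.L was not tested.

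Of 10 probe sets for proteins that bind the tail in the cytoplasm or partner its binding protein, 0 were called by limma, with 2 higher and 0 lower where unadjusted p was under 0.05. larp4.L, for a protein that protects the tail in mammals, was at 1.28 ± 0.33 on the log2 scale (adjusted p = 0.102), with 1.13 ± 0.44 for pabpc1l.S, the embryonic poly(A)-binding protein gene (adjusted p = 0.346). Their homeologs larp4.S and pabpc1l.L, named here after their values were seen, were at -0.22 ± 0.40 and 0.79 ± 0.78. At the low end were pabpn1l.L (-0.93 ± 0.44) and pabpc1.S (-0.30 ± 0.44). Among 16 probe sets for the complex that cleaves and polyadenylates transcripts in the nucleus, 0 were called, with 0 higher and 1 lower where unadjusted p was under 0.05, and the median was -0.44. The extremes were clp1.L (-0.99 ± 0.46), cpsf3.L, the gene of the endonuclease (-0.91 ± 0.35), cpsf2.S (0.23 ± 0.39) and cpsf6.L (0.33 ± 0.46). The exosome, which degrades RNA from the 3' end, also had 0 calls among 12 probe sets, with 0 higher and 1 lower where unadjusted p was under 0.05. Its changes ran from -0.88 ± 0.38 for dis3l.L and -0.64 ± 0.37 for exosc4.S to 0.12 ± 0.54 for exosc10.L and 0.30 ± 0.33 for exosc7.S.

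**Figure D4:**
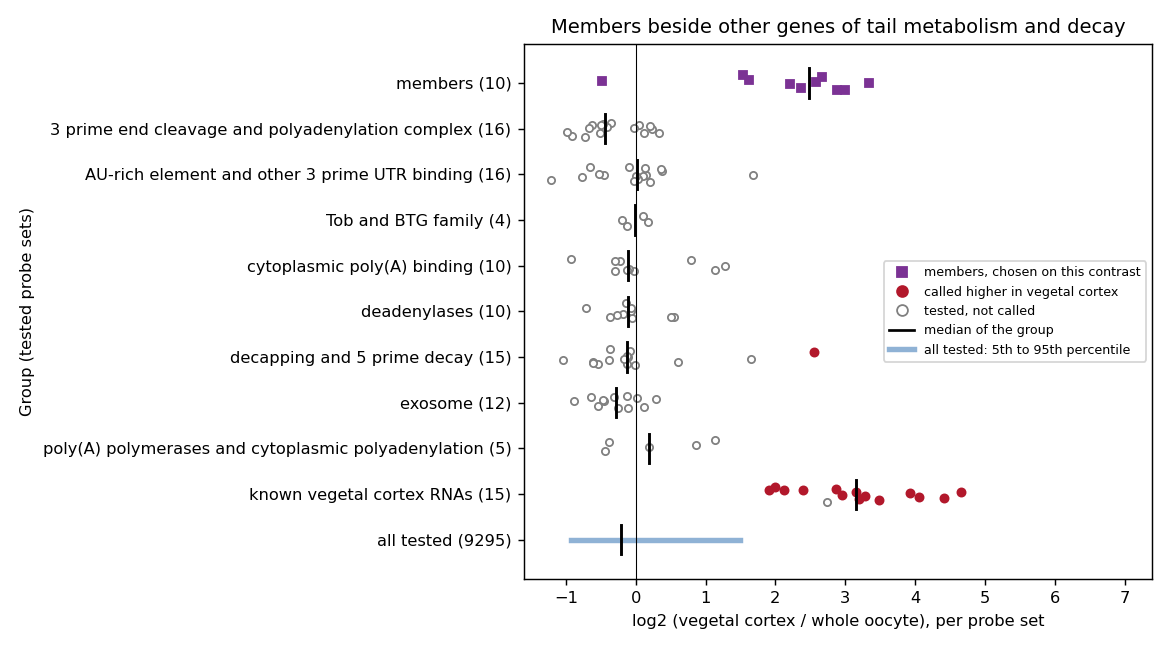
Log2 change, vegetal cortex over whole oocyte, of each tested probe set (points) for the members (squares), the 8 lists of tail and decay genes and the known vegetal cortex RNAs, with vertical bars for medians, filled circles for limma calls at an adjusted p under 0.05, and a blue bar for the range of all 9295 tested probe sets between the 5th and 95th percentiles. The list medians lie between -0.44 and 0.20, and lsm4.S at 2.56 is the filled point among the 8 lists.

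The genes whose profile over the 4 arrays was most like that of each member were found by the Euclidean distance between log2 signals centred on each probe set's mean, using the brightest probe set of each member. For tob2.L they were atp2a3.L (distance 0.13) and ddx25.L (0.19), which is also on the list of known vegetal cortex RNAs. For zfp36l2.S they were smad7.L (0.17) and camk2g.S (0.28), and for zfp36l2.L they were tmcc1.L (0.43) and lrp1.S (0.45). For papola.L they were XB5748694.L (0.08) and wdr18.L (0.09), and for parn.L tmem59.S (0.17) and mier2.L (0.18). papola.S was closest to clic4.S and fbxo28.S (0.04 each). With 4 arrays such likeness is a description, and the matches of zfp36l2.L were the least close of the 6. The distance takes in the contrast on which the members were picked. Matches that are high in the cortex, ddx25.L among them, therefore follow from that choice.

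Protein-coding genes next to the members in the Xenopus_laevis_v10.1 annotation were looked up for their position, not their values, and few were measured. On either side of papola.L lie gskip.L (log2 change -0.54 ± 0.40) and vrk1.L (-0.80 ± 0.53), and beside tob2.L lies phf5a.L (-0.39 ± 0.33 and -0.57 ± 0.46 on its 2 probe sets). None of these was called by limma, which says little beside the 3.31% of all tested probe sets called higher.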

How the data were processed

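RNA of 2 vegetal cortex and 2 whole oocyte samples was amplified in 2 cycles and hybridised to 1-colour Affymetrix arrays, per the labels' protocols. The deposited intensity values are MAS5 signals, per the submitters' processing notes, and the version is not given in the sources used here. Means trimmed by 2% at each end were 1500.1 to 1500.2 on the 4 arrays, so the scaling was kept. The number of arrays limits the precision, low MAS5 signals carry much noise, and 2 rounds of amplification favour the 3' end, which can set probe sets of a gene apart. Detection calls were not used.

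Of 15491 non-control probe sets, 9304 had 1 symbol, 195 several and 5992 none; 9227 were found in the RefSeq gene table (Xenopus_laevis_v10.1), which updated 2 symbols. A probe set annotated to both papola homeologs was not used. The 10th percentile of signals (19.11) was added before log2, and testing was limited to mean signals from 271.5, the 40th percentile, upwards. limma 3.58.1 (R 4.3.3; lmFit and trended eBayes, with 6.22 prior degrees of freedom added to 2 residual ones) compared cortex with whole oocyte, two-sided, without a block, with Benjamini-Hochberg adjustment over 9295 probe sets. The script was tested on simulated data. Errors are limma's SE.

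Pairing comes from the labels, which say controls came from the same female; across tested probe sets, the differences between females correlated at 0.35 between groups. Vegetal cortex replicate 2 was taken as such from its title, although its description gives replicate 1.

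The members and lists were chosen with earlier results of these data known. List symbols were matched without the homeolog ending or locus number. Named list genes are all called ones and the 2 highest and 2 lowest of the rest. Named outside that rule were relatives of the members in the ZFP36, Tob and BTG families, further probe sets of named genes, and the genes marked in the text. Likeness names the 2 closest genes per member. Alternatives covered the offset, the dim filter, quantile normalization, the trend, the block and each array left out. No sequences were used here.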

Additional observations from a re-analysis of the deposited data

How the results depend on the processing

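The dim filter, the trend and the replicate block cannot change a difference of group means. Under the other 7 alternatives the 10 member log2 changes kept their sign. Of 70 values, 52 moved by less than the SD between females of that probe set's own change. This SD was 1.68 for the dimmer parn.L probe set and 0.07 for the dimmer tob2.L one. A noisier probe set thus passes more easily, and the count does not measure stability. The members were picked on this contrast, so the count is a description. The number of member probe sets called higher was 6 or 7 under the offsets, the dim filter, quantile normalization, no trend and the replicate block (7). Under these settings 222 to 355 of all tested probe sets were called higher. The members were chosen on this contrast, so nothing is read from their count. Fits that leave 1 array in a group were read only for the size of the member changes. Leaving out arrays gave the dimmer parn.L probe set changes from 0.10 to 2.99, the dimmer papola.L probe set 1.52 to 3.21 and papola.S -0.67 to -0.29. Over all tested probe sets, 308 were called higher and 0 lower (limma; 745 and 429 at an unadjusted p under 0.05), with 125 to 697 higher and 0 to 673 lower when an array was left out; with a single cortex array the error comes from the whole oocyte arrays. Without the dim filter 222 were called higher, with the replicate block 355, and quantile normalization called 1 lower. The tail and decay lists had 2 probe sets called higher with quantile normalization or the replicate block (lsm4.S and celf1.L), and 0 to 5 higher and 0 to 6 lower when an array was left out. The replicate block changed no other call among the named list genes. The median of all tested changes lay between -0.24 and -0.10 over the alternatives, so changes of that size have no firm sign. Signals near the offset limit what the dimmest papola.S probe set can show.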
